A study of Mus musculus with 8 samples.

Results

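The Kruppel-like factor (KLF) genes Klf2, Klf3, Klf4, Klf5, Klf6, Klf9, Klf10, Klf11 and Klf13 were taken by name from a table of 18102 genes. They were chosen with earlier results of these data known, and all 9 are reported whatever their values. Their counts and medians beside those of all genes are therefore descriptions. All 9 were in the table and all 9 had a mean of at least 10 normalised reads, the minimum for testing, although Klf2 met it only through its wild-type libraries. Transcripts were measured by RNA sequencing in 8 libraries of NMuMG, an epithelial cell line from the mouse mammary gland. There are 4 groups with 2 libraries each. Cells were WT or carried the label RREB1 KO, and all were serum starved for 6 h. One treatment was 2.5 µM SB505124, given for 6 h, and the other was TGFβ at 100 pM, given for 1.5 h. SB505124 inhibits the kinase of the TGFβ type I receptor, so the comparison libraries are inhibitor treated rather than untreated, and the length of treatment differs together with the agent. All KO columns carry the single code KO1, taken here as 1 line, so every genotype comparison is between WT cells and that line.

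KLF proteins are transcription factors that bind GC-rich and CACCC-containing DNA through a block of zinc fingers at the carboxyl end, and that differ in the activating or repressing partners recruited by the rest of the protein. Several are early response genes whose transcripts change soon after a stimulus. Klf10 and Klf11 were first described as TGFβ-inducible early genes, and in mammary epithelium Klf4 is known for maintaining epithelial identity and Cdh1 transcription, while Klf5 is linked to epithelial proliferation.

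Library depth was 25144204 to 32143113 reads, and values are reads divided by 1 size factor per library. Rreb1, the targeted gene, had 1044 ± 15.4 normalised reads in WT cells given SB505124 and 1335 ± 11.3 in the matching KO libraries (mean ± SD, n = 2 per group). With TGFβ these levels were 1864 ± 134 and 2361 ± 170. Its transcript was therefore not lower in the KO libraries, which are called KO-labelled below, although a count over the whole gene does not show a small edit. Of 7 luminal epithelial markers, 4 (Cdh1, Krt8, Krt18 and Krt19) had a mean of at least 10, and their list summed to 172760 to 272010 normalised reads a library. Cldn7 was under 10 in mean and Cldn3 was not in the table used here. Epcam, under 10 in the mean of all libraries, had 8.11 and 4.00 in WT cells with SB505124, 24.2 and 36.6 in WT cells with TGFβ, and no reads in the 4 KO-labelled libraries. Nothing in the labels states that replicates came from separate cultures, and the p-values therefore cover the spread between these libraries alone.

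The stretches just upstream of 4 of the genes are shown because these 4 differ in how they changed: Klf2 was lower in KO-labelled cells, Klf3 was lower under TGFβ in both genotypes, Klf4 moved in opposite directions in the 2 genotypes, and Klf9 was higher under TGFβ in KO-labelled cells. They come from RefSeq (GRCm38.p6), read 5′ to 3′ on the strand of the gene, and end before the first base that GENCODE M21 annotates as exon. Capitals mark the GC box (GGGCGG) and the KLF box (CACCC) on either strand, and adjoining matches run together. The Klf2 stretch is chr8:72318812-72319032 (+ strand), that of Klf3 is chr5:64803271-64803387 (+ strand), that of Klf4 is chr4:55532476-55532725 (- strand) and that of Klf9 is chr19:23140976-23141225 (+ strand).
Klf2: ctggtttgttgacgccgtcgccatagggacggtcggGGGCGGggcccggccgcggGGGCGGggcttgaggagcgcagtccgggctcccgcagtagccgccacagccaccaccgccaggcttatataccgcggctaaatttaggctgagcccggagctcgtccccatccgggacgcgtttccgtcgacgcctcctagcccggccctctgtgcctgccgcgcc
Klf3: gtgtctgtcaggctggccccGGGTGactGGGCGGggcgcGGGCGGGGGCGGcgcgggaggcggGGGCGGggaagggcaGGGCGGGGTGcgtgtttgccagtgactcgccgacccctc
Klf4: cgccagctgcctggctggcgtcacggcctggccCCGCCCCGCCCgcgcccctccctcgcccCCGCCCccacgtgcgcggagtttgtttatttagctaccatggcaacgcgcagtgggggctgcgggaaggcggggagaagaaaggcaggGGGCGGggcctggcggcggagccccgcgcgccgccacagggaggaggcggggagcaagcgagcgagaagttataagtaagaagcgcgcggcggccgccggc
Klf9: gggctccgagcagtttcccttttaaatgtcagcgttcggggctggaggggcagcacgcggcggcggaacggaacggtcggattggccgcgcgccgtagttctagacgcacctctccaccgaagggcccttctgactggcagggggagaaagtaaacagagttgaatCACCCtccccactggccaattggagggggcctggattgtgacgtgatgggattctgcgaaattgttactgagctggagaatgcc

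RefSeq entries were matched for 7 of the 9 genes, and motifs were counted in the 250 bases before each RefSeq start. Klf5 and Klf10 had no entry, so nothing below covers them. For Klf2, Klf3, Klf6 and Klf11 the last 29, 133, 7 and 97 of these bases lie in an exon of GENCODE M21. The GC box was found in 6 of these 7 windows, against 32.7% of all 32851 promoters of the table. Klf3 held 6 matches, Klf4 and Klf11 4 each, Klf13 3, Klf2 2 and Klf6 1, while Klf9 held none. Before the GENCODE exon, 5 of the 6 matches of Klf3 and 2 of the 4 of Klf11 were left, and the other windows kept theirs. These windows were GC rich, at 71.2% in Klf2, 78.4% in Klf3, 74.0% in Klf4 and 59.6% in Klf9, against a median of 52.4% over all promoters. The KLF box, the site class that KLF proteins themselves bind, was found in 4 of 7 windows (Klf2, Klf3, Klf9 and Klf13), close to the 52.0% of all promoters. The single match of Klf2 and 3 of the 5 of Klf3 lie in the GENCODE exon, so they are not in the stretches printed above. The SMAD element CAGAC was found in Klf3 alone among the 7, against 42.2% of all promoters. No window held the SMAD palindrome GTCTAGAC (0.167% of all promoters), the AP-1 site TGACTCA (4.46%), the cyclic AMP response element TGACGTCA (1.55%), the glucocorticoid response core ACANNNTGT (5.84%) or the CArG box (1.47%). A match is a description of letters, and both strands were searched.

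Per kb of exon, Klf6 was the most abundant of the 9 transcripts in every group. It had 1623 normalised reads per kb in WT cells under SB505124 and 2161 under TGFβ, and 1596 and 2164 in KO-labelled cells, which was 43.5% to 55.0% of the sum over the 9 genes. Under SB505124 in WT cells the order below Klf6 was Klf10 (579 normalised reads per kb), Klf4 (533), Klf13 (323), Klf5 (266), Klf9 (190), Klf3 (144), Klf11 (37.1) and Klf2 (34.4). In KO-labelled cells under SB505124 the order was Klf13 (303), Klf5 (258), Klf3 (201), Klf10 (170), Klf9 (165), Klf4 (138), Klf11 (66.3) and Klf2 (3.58). Klf10 and Klf4, which followed Klf6 in WT cells, thus stood below Klf13, Klf5 and Klf3. Under TGFβ, Klf10 came after Klf6 in both genotypes, at 1123 normalised reads per kb in WT and 531 in KO-labelled cells. Klf10 and Klf9 in KO-labelled cells under SB505124 were the single pair of neighbours in any group whose libraries overlapped, and neighbours were not tested against each other.

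**Figure D1:**
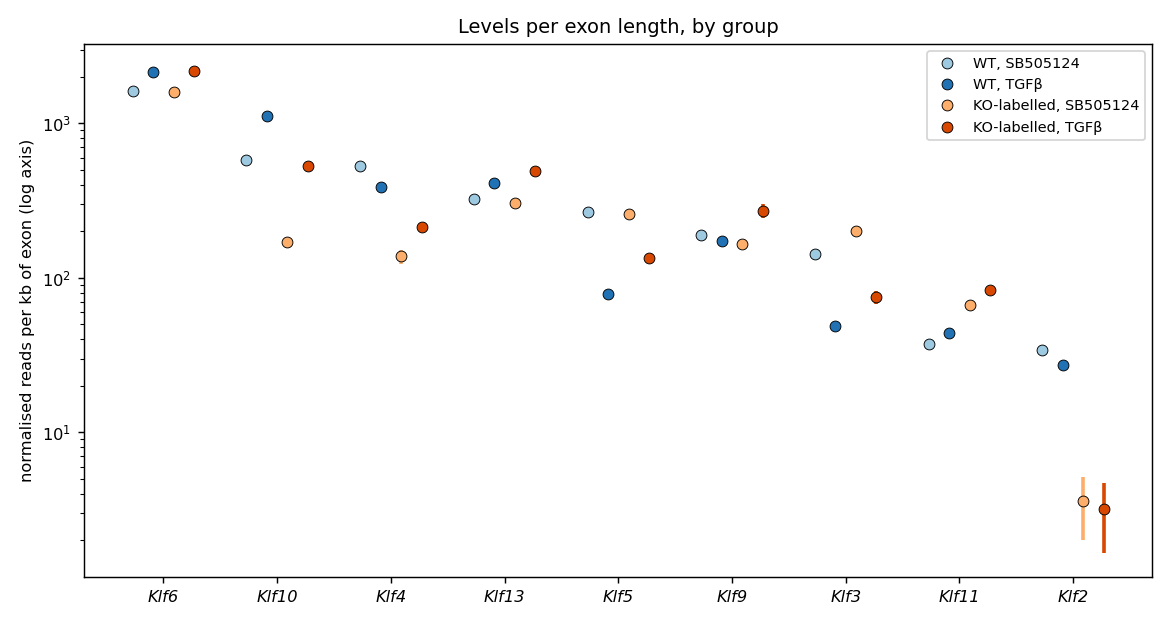
Normalised reads per kb of exon (log axis) for the 9 genes in the 4 groups. Points are means of 2 libraries and lines run from the lower to the higher library. Klf6 is highest in each group, and Klf2 is lowest, at 34.4 in WT and 3.58 in KO-labelled cells under SB505124.

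The first comparison asked how the 9 transcripts differed between TGFβ and SB505124 in WT cells. Klf10, Klf6 and Klf13 rose, Klf5, Klf3 and Klf4 fell, and Klf2, Klf9 and Klf11 did not pass the test (limma on log2(value + 1), Benjamini-Hochberg adjusted p under 0.05 over 12498 genes). Among all genes tested 20.2% rose and 23.2% fell, so 3 of 9 in each direction is not far from the background. In KO-labelled cells 6 rose (Klf4, Klf6, Klf9, Klf10, Klf11 and Klf13), 2 fell (Klf3 and Klf5) and Klf2 did not pass, where 15.1% of all genes rose and 15.8% fell. The median log2 change of the 9 was -0.13 in WT cells (-0.01 over all genes) and 0.44 in KO-labelled cells (-0.02 over all genes).

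Markers of other cell types also moved with the treatment. The 5 fibroblast markers summed to 161 to 163 normalised reads in WT libraries with SB505124 and 512 to 669 with TGFβ, and to 46.5 to 61.3 and 366 to 383 in KO-labelled libraries. Of the 3 that could be tested, Col1a1, a collagen gene, rose by 3.53 in WT and 4.07 in KO-labelled cells, and Pdgfra rose by 1.66 and 1.79. Dcn did not pass in WT, although its libraries did not overlap (86.2 and 94.1 with SB505124, 58.95 and 38.9 with TGFβ). In KO-labelled libraries Dcn had 0 to 0.864, too little for a response to be seen. Among basal markers Krt14 had 6.08 and 3.00 normalised reads in WT cells with SB505124. With TGFβ it had 46.3 and 37.7 in WT cells. Krt14 reached the minimum mean for testing only through these TGFβ libraries, where it is high, so no p-value is given. Krt5 reached that minimum only through the KO-labelled libraries. Its fitted change of 1.39 in WT rests on 1 and 0 reads with SB505124 against 2 and 3 with TGFβ. These reads are too few to be read as a rise. The part of these markers in the KLF responses was not tested.

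The difference of the responses, KO-labelled minus WT, was then tested directly. It was above 0 for Klf4, Klf5, Klf9 and Klf10 and not called for the other 5, with none called below 0. Over all genes 2.25% were called above and 0.568% below. The members' median difference was 0.36, against 0.015 over all genes. All 4 calls rest on the variance trend that the model shares over genes: without it, their limma adjusted p were 0.0626 (Klf4), 0.108 (Klf5), 0.0906 (Klf9) and 0.0658 (Klf10).

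**Figure D2:**
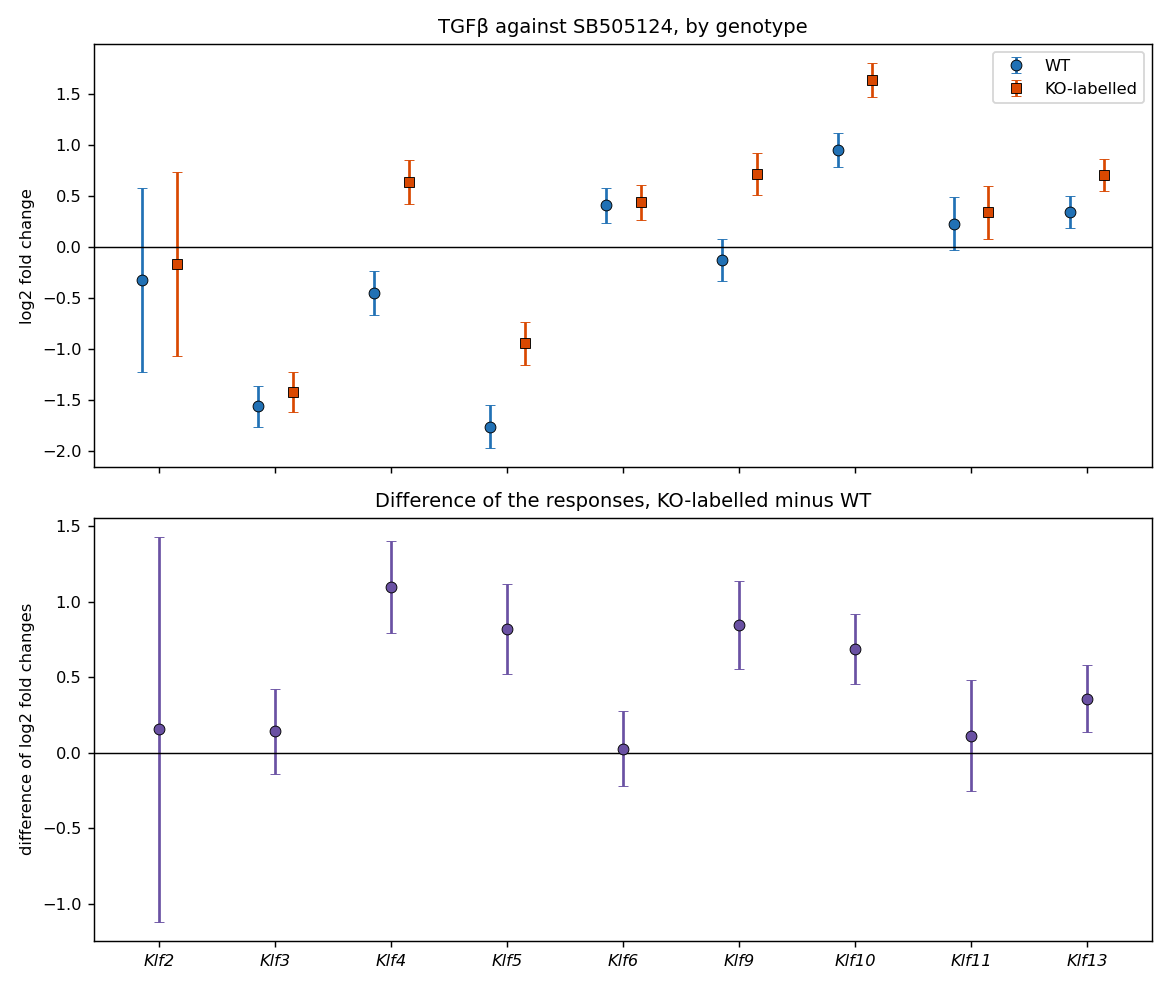
Log2 fold changes, TGFβ against SB505124, in WT and KO-labelled cells (upper plot) and their difference (lower plot) for the 9 genes. Points are model estimates from 2 libraries per group and bars are 95% confidence intervals of the model. Klf4 lies below 0 in WT (-0.45) and above 0 in KO-labelled cells (0.64).

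Among the TGFβ-inducible early genes, Klf10, a repressor that recruits the Sin3 corepressor complex and is known to lower Smad7 transcription, had 2496 and 2343 normalised reads in the WT libraries under SB505124 and 4681 and 4705 under TGFβ. In KO-labelled cells it had 691 and 731 under SB505124 and 2272 and 2165 under TGFβ. No library of one group reached into another, and the KO-labelled cells under TGFβ remained below WT cells under SB505124. The log2 response was 0.96 ± 0.08 (SE) in WT (limma adjusted p = 2.0e-08) and 1.64 ± 0.08 in KO-labelled cells (adjusted p = 5.6e-12). The difference of 0.68 ± 0.11 passed (adjusted p = 0.00139). On the scale of normalised reads the order was the other way round, with a gain of 2274 in WT and 1508 in KO-labelled cells, from means of 2419 and 711 under SB505124.

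Klf11, the close relative of Klf10 and likewise a Sin3-recruiting repressor, had 161 normalised reads in each WT library given SB505124 and 180.0 and 199 in those given TGFβ. KO-labelled cells had 298 and 277 with SB505124 and 359 and 370.1 with TGFβ. Every KO-labelled library was above every WT library. The TGFβ response did not pass in WT (0.23 ± 0.12, limma adjusted p = 0.146) and passed narrowly in KO-labelled cells (0.34 ± 0.12, adjusted p = 0.0438), a call lost in 10 of 18 alternative settings with an adjusted p of up to 0.189. The difference of the responses was 0.11 with a 95% interval from -0.26 to 0.48. Unlike Klf10, Klf11 was higher in KO-labelled cells, by 0.83 ± 0.12 under SB505124 (adjusted p = 1.4e-05) and 0.94 ± 0.12 under TGFβ (adjusted p = 2.7e-06).

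Klf9 and Klf13 are Sin3-recruiting factors of the same subgroup, and Klf9 is best known as a target of glucocorticoid and thyroid hormone receptors. Klf9 had 940 and 885 normalised reads in WT cells under SB505124, 827 and 840.1 under TGFβ, 799 and 789 in KO-labelled cells under SB505124 and 1442 and 1182 under TGFβ. The KO-labelled TGFβ libraries stood above the other 6, and were also the most spread pair. The response was -0.13 ± 0.10 in WT (limma adjusted p = 0.302) and 0.72 ± 0.10 in KO-labelled cells (adjusted p = 1.2e-05), and the difference of 0.85 ± 0.14 passed (adjusted p = 0.00142).

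Klf13 had 2431 and 2427 normalised reads in WT cells under SB505124 and 3029 and 3152 under TGFβ. The KO-labelled libraries had 2329 and 2232 under SB505124 and 3765 and 3674 under TGFβ. TGFβ libraries were higher than SB505124 libraries in both genotypes without overlap, by 0.35 ± 0.07 in WT (limma adjusted p = 0.00106) and 0.71 ± 0.07 in KO-labelled cells (adjusted p = 5.2e-07). The difference of 0.36 ± 0.11 did not pass (adjusted p = 0.0776), although DESeq2 on the recovered reads gave an adjusted p of 0.0378.

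Klf6, a widely expressed activator induced early after injury and serum, had 7116 and 7141 normalised reads in WT cells under SB505124 and 9058 and 9919.5 under TGFβ. In KO-labelled cells it had 7315 and 6702 under SB505124 and 9974.5 and 9027 under TGFβ. All 4 TGFβ libraries were above all 4 SB505124 libraries, and within each treatment the 2 genotypes overlapped. The response was 0.41 ± 0.08 in WT (limma adjusted p = 6.0e-04) and 0.44 ± 0.08 in KO-labelled cells (adjusted p = 4.5e-04). Their difference was 0.03, with a 95% interval from -0.22 to 0.27.

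Klf4 and Klf2 are closely related, and both are known as targets of the MEK5-ERK5-MEF2 pathway. Klf4, whose GC-box-bearing upstream stretch is printed above, had 1632 and 1618 normalised reads in WT cells under SB505124 and 1160.0 and 1214 under TGFβ. In the KO-labelled libraries these levels were 377 and 463 with SB505124 and 688 and 619 with TGFβ. The 4 groups did not overlap: WT cells were lower under TGFβ, KO-labelled cells were higher, and all WT libraries stood above all KO-labelled ones. The fall in WT was -0.45 ± 0.10 (limma adjusted p = 0.00158), the rise in KO-labelled cells 0.64 ± 0.10 (adjusted p = 7.7e-05), and the difference 1.10 ± 0.15 (adjusted p = 2.1e-04). Klf4 was 1 of 21 genes (0.168% of those tested) that were called lower under TGFβ in WT and higher in KO-labelled cells, and the only one of the 9.

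Klf2, best known as a flow-responsive factor of endothelium and a quiescence factor of lymphocytes, was the lowest of the 9. It had 58.8 and 68.1 normalised reads in WT cells under SB505124 and 49.5 and 51.4 under TGFβ, against 3.72 and 9.50 in KO-labelled cells under SB505124 and 8.66 and 3.08 under TGFβ. Every WT library was above every KO-labelled one, and within KO-labelled cells the treatments overlapped. The KO-labelled values rest on 15 reads under SB505124 and 12 under TGFβ. Neither TGFβ response passed (limma adjusted p = 0.575 in WT and 0.808 in KO-labelled cells), and the 95% interval of their difference, -1.12 to 1.43, spans both directions. Of 5 endothelial markers only Cdh5 had a mean of at least 10, Pecam1, Kdr and Tek were lower and Tie1 was not in the table used here. Their summed level was 14.2 to 40.0 in WT and 3.72 to 13.5 in KO-labelled libraries, and its part in the Klf2 difference was not tested.

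Klf5, a factor of proliferating basal and progenitor epithelium, had 1316 and 1449 normalised reads in WT cells under SB505124 and 378 and 437 with TGFβ. In KO-labelled cells the libraries had 1389 and 1294 with SB505124 and 737 and 657 with TGFβ. The SB505124 libraries of the 2 genotypes overlapped, whereas under TGFβ both KO-labelled libraries were above both WT libraries. The fall was -1.76 ± 0.10 in WT (limma adjusted p = 9.5e-11), the 51st largest of 6381 falls, and -0.94 ± 0.10 in KO-labelled cells (adjusted p = 5.5e-07). The difference of 0.82 ± 0.14 passed (adjusted p = 0.00234). As a ratio of means, Klf5 under TGFβ was at 0.295 of its SB505124 level in WT and 0.520 in KO-labelled cells.

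Klf3, a repressor that recruits CtBP, had 1638 and 1591 normalised reads in WT cells under SB505124 and 566 and 525 under TGFβ, against 2321 and 2193 and then 922 and 766 in KO-labelled cells. It fell in both genotypes, without overlap between groups, by a log2 change of -1.57 ± 0.10 in WT (limma adjusted p = 2.4e-10) and -1.42 ± 0.10 in KO-labelled cells (adjusted p = 8.1e-10). The difference was 0.14, with a 95% interval from -0.14 to 0.42. Klf3 shares exon sequence with the antisense gene Gm20033, and the library kit does not mark strand, so their reads cannot be told apart. The other 8 genes overlapped no annotated exon of another gene.

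**Figure D3:**
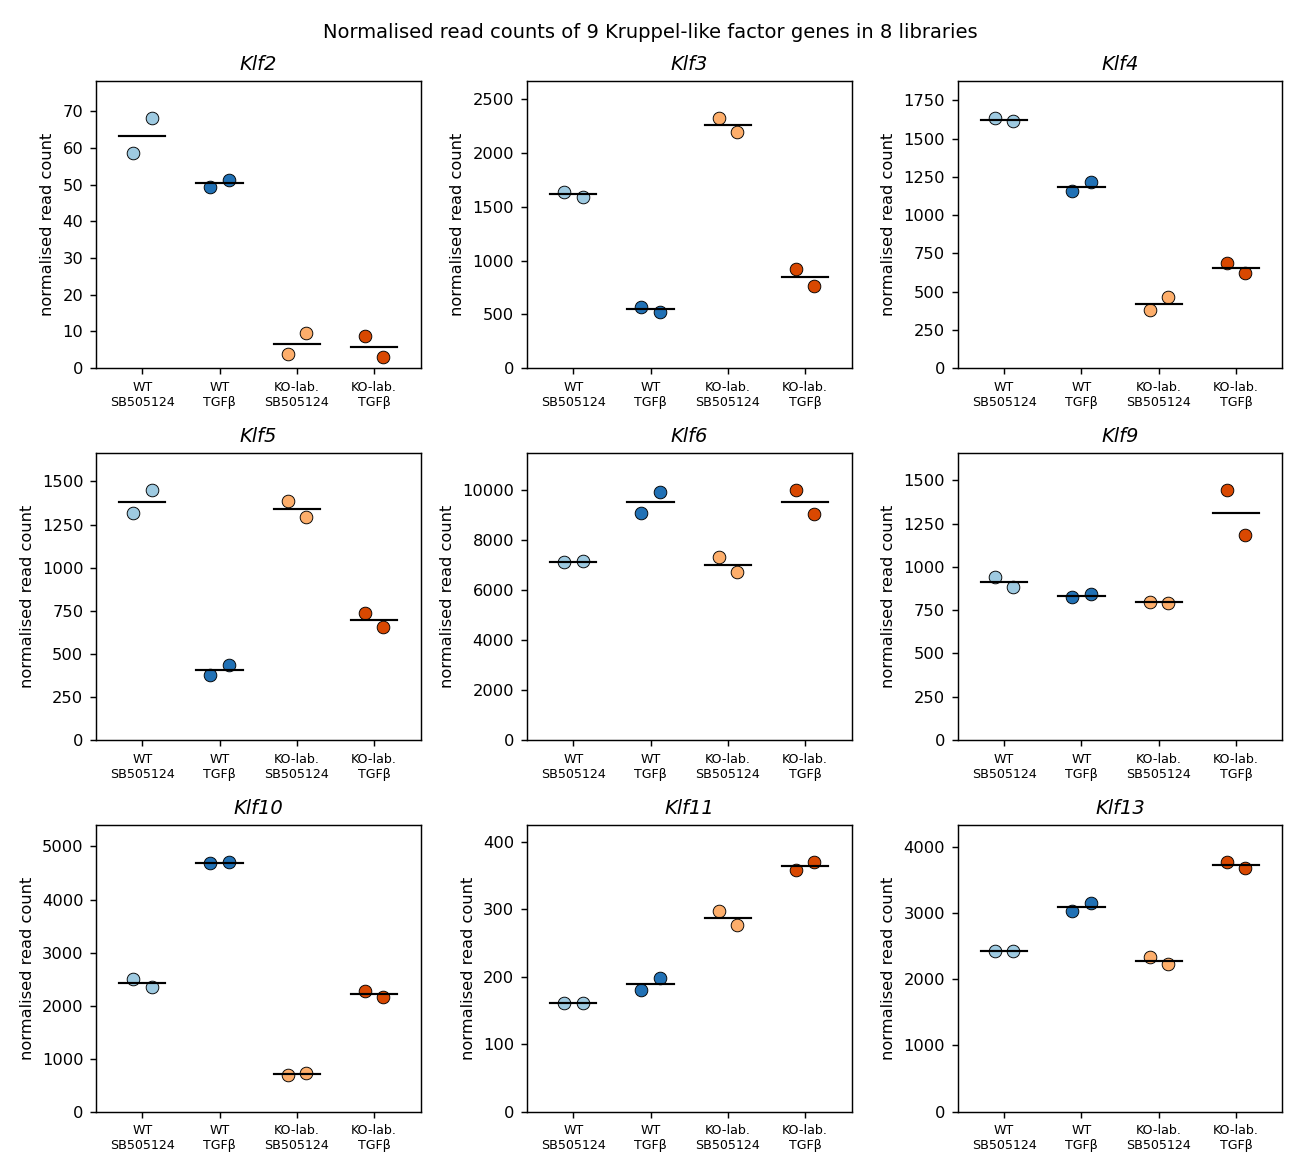
Normalised read counts of the 9 genes in each of the 8 libraries, 1 plot per gene with its own axis from 0. Points are libraries and black lines are means of 2. Klf3 and Klf5 are lower under TGFβ in both genotypes, and Klf9 is highest in the KO-labelled TGFβ libraries (1442 and 1182).

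The third comparison set KO-labelled against WT cells under each treatment. Under SB505124, Klf3 and Klf11 were higher, Klf2, Klf4 and Klf10 lower, and Klf5, Klf6, Klf9 and Klf13 not called, where 29.2% of all genes were higher and 27.7% lower. Under TGFβ, Klf3, Klf5, Klf9, Klf11 and Klf13 were higher, Klf2, Klf4 and Klf10 lower and Klf6 not called, where 32.7% of all genes were higher and 30.2% lower. The members' median log2 difference was -0.09 and 0.27 (0.01 over all genes in both). Klf2 is included in these calls although it met the minimum mean only through its WT libraries. These 2 comparisons share no library with each other, but each shares libraries with the TGFβ responses above.

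Markers of other cell types differed between the genotypes as well, and their part in the KLF differences was not tested. Krt5, a basal keratin, had 0 to 3.43 normalised reads in WT libraries and 56.8 to 82.1 in KO-labelled ones, whereas Krt14, its usual partner, had 3.00 to 46.3 in WT and no reads in KO-labelled libraries. With 3 reads over the group as the bound, Krt14 was at least 3.38-fold higher in WT under SB505124 and at least 28.2-fold higher under TGFβ. The 5 basal markers together summed to 17.2 to 57.9 in WT and 66.1 to 87.2 in KO-labelled libraries. Dcn, which encodes the matrix proteoglycan decorin, had 38.9 to 94.1 in WT and 0 to 0.864 in KO-labelled libraries, and Col1a1 was lower in KO-labelled cells by -1.35 and -0.81. Pdgfra, the other fibroblast marker tested, was not called (0.10 and 0.23). Leukocyte markers summed to 461 to 512 in WT and 561 to 683 in KO-labelled libraries, with 2 of 5 (Cd68 and Lyz2) at a mean of at least 10 and Cd68 called higher by 0.41 and 0.39. Among luminal markers, Cdh1 was higher in KO-labelled cells by 0.44 and 0.84, and Krt19 by 0.33 and 0.45. Krt8 was not called under SB505124 (0.17) and was higher under TGFβ (0.37). Krt18 was not called (-0.06 and -0.08), and Epcam had reads in WT libraries only.

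Klf2 was lower in KO-labelled cells by the largest factor, -3.19 ± 0.43 under SB505124 and -3.04 ± 0.43 under TGFβ. It reached the minimum mean of 10 only through the WT libraries, where it is high, so no p-value is given. Its means in KO-labelled cells were 6.61 under SB505124 and 5.87 under TGFβ. Its means in WT were 9.59 and 8.60 times those in KO-labelled cells, and 1 library decides the size of these ratios. Under SB505124 the ratio was 17.0 without KO replicate 2 and 6.68 without KO replicate 1, and under TGFβ it was 16.4 without KO replicate 1 and 5.82 without KO replicate 2. On the log2 scale these omissions gave -3.77 and -2.61 under SB505124, and -3.66 and -2.41 under TGFβ. Klf4 was lower by -1.96 ± 0.10 (limma adjusted p = 8.6e-12) and -0.86 ± 0.10 (adjusted p = 7.4e-07), and Klf10 by -1.77 ± 0.08 (adjusted p = 7.7e-13) and -1.08 ± 0.08 (adjusted p = 1.0e-09). For Klf4 and Klf10 the gap was thus narrower under TGFβ, which is the difference of responses given above. Klf3 was higher by 0.48 ± 0.10 (adjusted p = 2.7e-04) and 0.62 ± 0.10 (adjusted p = 1.6e-05).

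Klf5 and Klf9 formed the other pattern. Under SB505124 the genotypes were not called different, at -0.04 for Klf5 (95% interval -0.25 to 0.17) and -0.20 for Klf9 (limma adjusted p = 0.0896), and under TGFβ both were higher in KO-labelled cells, by 0.78 ± 0.10 (adjusted p = 2.1e-06) and 0.65 ± 0.10 (adjusted p = 1.3e-05). Klf13 went from -0.09 (adjusted p = 0.311) to 0.27 ± 0.07 (adjusted p = 0.00448). Klf6 was at -0.03 (95% interval -0.20 to 0.15) and 0.00 (-0.17 to 0.18), so a genotype difference larger than these bounds lies outside the intervals.

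The genes lie on 9 different chromosomes (GENCODE M21, GRCm38), and 2 of these stood apart in KO-labelled cells. The median log2 difference under SB505124 was -0.69 over the other 713 tested genes of chromosome 4, which carries Klf4 at chr4:55527143-55532466, and -0.62 over 391 genes of chromosome 14, which carries Klf5 at chr14:99298691-99315036. On the chromosomes of the other 7 genes it was between -0.04 and 0.12. The log2 difference of Klf4 less that median was -1.27 under SB505124 and -0.18 under TGFβ, where the chromosome's median was -0.68. Klf5 was above its chromosome's median by 0.57 under SB505124 and 1.36 under TGFβ. For Klf10 (chr15:38291463-38300706) and Klf2 (chr8:72319033-72321656) the values less the median, -1.72 and -3.27 under SB505124, were nearly those before. Over the 20 tested genes flanking each member, the median under SB505124 was 0.616 at Klf6, 0.475 at Klf13 and 0.347 at Klf9. It was -0.47 at Klf4, -0.575 at Klf5, and between 0.07 and 0.27 at the rest. The part of the chromosome-wide shift in the genotype differences of Klf4 and Klf5 was not tested, nor was that of the flanking shifts in any member.

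**Figure D4:**
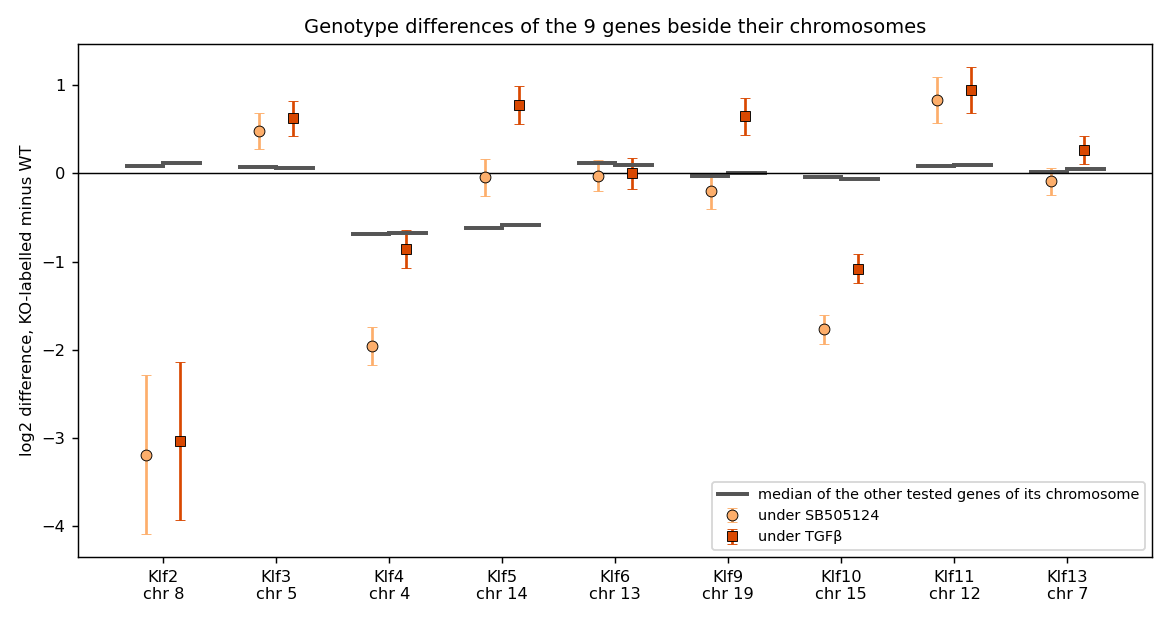
Log2 difference, KO-labelled minus WT, under SB505124 and TGFβ for the 9 genes, with 95% confidence intervals of the model. Grey lines are the medians of the other tested genes of each gene's chromosome, which lie at -0.69 and -0.68 for chromosome 4 (Klf4) and at -0.62 and -0.58 for chromosome 14 (Klf5).

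The genes whose profiles over the 8 libraries were most like each member's were found by the root mean square (RMS) difference of centred log2 values, with correlations over the same 8 libraries, which share treatment and genotype. Klf3 was closest to Dusp1, an early response phosphatase of MAP kinases (RMS 0.0989, r = 0.992), and Klf5 to Rapgef2 (0.120, r = 0.987) and Dusp1 (0.162). Klf10 was closest to Fam132b (0.0678, r = 0.998) and Vegfa, the angiogenic growth factor (0.148, r = 0.989). Klf4 was closest to the integrin gene Itga3 (0.176) and the peptide transporter gene Tap2 (0.178), and Klf2 to Ogdhl (0.299) and Eml2 (0.323). For Klf6 they were Papd7 (0.0525) and Mapkapk2 (0.0617), for Klf9 Bcor (0.0922) and Slc23a2 (0.112), for Klf11 Dapp1 (0.0593) and Agfg1 (0.0658), and for Klf13 Ppfibp1 (0.0353) and Arhgef2 (0.0488). Among the 9 themselves the closest pair was Klf6 and Klf13 (0.115, r = 0.924). Klf2 and Klf4 had r = 0.919 but differed in size, with an RMS of 0.966.

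Of 8 other KLF genes, Klf7, Klf8, Klf12 and Klf16 could be tested, Klf1 and Klf15 had a mean under 10, and Klf14 and Klf17 were not in the table used here. In WT cells none of the 4 passed for TGFβ (20.2% of all genes rose and 23.2% fell), and in KO-labelled cells 1 rose (15.1% of all genes). That was Klf7, with 132 and 116 normalised reads under SB505124 and 219.5 and 184 under TGFβ (0.69, limma adjusted p = 0.00622), against 62.9, 82.1, 74.7 and 82.3 in the WT libraries. Klf7 was also higher in KO-labelled cells, by 0.78 under SB505124 and 1.34 under TGFβ, and Klf12, on chromosome 14, was lower, by -1.55 and -1.58. No difference of responses passed among the 4, where 2.25% of all genes were called above 0 and 0.568% below.

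The SP genes, the nearest relatives of the KLF family, bind GC boxes, and 6 of 9 could be tested. In WT cells 1 rose and 4 fell under TGFβ, and in KO-labelled cells 1 rose and 2 fell, with 0 of 6 differences of responses called. Over all genes the shares were 20.2% and 23.2% in WT and 15.1% and 15.8% in KO-labelled cells. For differences of responses they were 2.25% above and 0.568% below 0. Against these shares the counts are few, and nothing particular to the list is read from them. Sp8 was the riser, by 1.28 and 0.97, and was lower in KO-labelled cells, by -1.95 under SB505124 and -2.26 under TGFβ. Sp4 fell by 0.61 in WT and 0.90 in KO-labelled cells, and Sp1, the general GC-box factor, fell by 0.62 and 0.47.

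All 13 co-regulators and ubiquitin ligases of KLF proteins could be tested. Under TGFβ 3 rose and 4 fell in WT cells, 2 rose and 2 fell in KO-labelled cells, and the difference of responses was above 0 for 2 and below 0 for 1. The shares in KO-labelled cells are near those of all genes (15.1% and 15.8%), as are those in WT cells (20.2% and 23.2%), while 2.25% and 0.568% of all genes had a called difference above and below 0. The 2 were the related acetyltransferases Ep300 (0.45, limma adjusted p = 0.0456) and Crebbp (0.59, adjusted p = 0.0309), and the other was Fbxw7, the ubiquitin ligase receptor that targets KLF5 and KLF2 protein (-0.89 ± 0.15, adjusted p = 0.00222). Fbxw7 was higher under TGFβ in WT by 0.87, and lower in KO-labelled than in WT cells under TGFβ (-0.99). Wwp1, a ligase of KLF5 protein, was lower in KO-labelled cells by -0.61 and -0.70, and lies on chromosome 4, whose median was -0.69.

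In the MEK5-ERK5-MEF2 pathway, 6 of 8 genes could be tested. In WT cells 1 rose and 1 fell under TGFβ, in KO-labelled cells 3 rose, and 1 difference of responses passed, above 0. Over all genes the shares were 20.2% and 23.2% in WT, 15.1% for rises in KO-labelled cells and 2.25% for differences above 0. That was Mef2d, a MEF2 transcription factor (0.54, limma adjusted p = 0.0326). Map3k2, the kinase upstream of MEK5, rose by 0.54 in WT and 0.95 in KO-labelled cells, and was higher in KO-labelled cells by 0.67 under SB505124 and 1.08 under TGFβ. Map2k5, which encodes MEK5, was lower in KO-labelled cells by -0.61 and -0.70, while Mef2a was higher by 0.67 and 0.75.

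Of 15 published KLF targets, 12 could be tested. Thbd, described below, was among them only through the WT libraries given SB505124. It had no reads in KO-labelled cells, which leaves 11 for the response there and for the difference of responses. Under TGFβ 5 rose and 4 fell in WT cells, with Thbd among the 4. In KO-labelled cells 6 rose and 1 fell, and 1 difference of responses passed, above 0. Among all genes 20.2% rose and 23.2% fell in WT, 15.1% rose and 15.8% fell in KO-labelled cells, and 2.25% had a difference above 0. Smad7, the inhibitory SMAD that Klf10 is known to repress, rose by 2.71 in WT and 3.02 in KO-labelled cells, and its difference did not pass (limma adjusted p = 0.182). Pdgfa, a platelet-derived growth factor chain, rose by 2.14 and 2.47. Tgfbr1, the type I TGFβ receptor, rose by 1.09 and 1.80, and was the gene whose difference passed (0.72, adjusted p = 0.00126). Lgals3, on chromosome 14, was lower in KO-labelled cells by -0.98 and -1.08.

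Thbd, which encodes thrombomodulin and is an established target of KLF2, was singled out after its values were seen. It had 57.8 and 58.1 normalised reads in WT cells under SB505124 and 18.95 and 11.4 under TGFβ, and no reads in any of the 4 KO-labelled libraries. With 3 reads over the group as the bound, it was at least 43.1-fold higher in WT under SB505124 and at least 10.2-fold higher under TGFβ. Its mean of 18.3 reached the minimum of 10 only through the WT libraries given SB505124. No p-value is given, since the gene was chosen on these same values. In WT cells the log2 fall of Thbd under TGFβ was 1.90, where Klf2 itself did not pass. The bounds cover counting error only. S1pr1, Nos3 and Krt4, on the same list of targets, had means under 10. S1pr1 had 1.05 to 5.07 normalised reads in WT libraries and no reads in KO-labelled ones. Nos3 had 2.00 to 5.26 in WT and 0 to 3.08 in KO-labelled libraries, with overlap. The share of all genes without reads in KO-labelled cells is not given here, so nothing about KLF2 targets is read from Thbd.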

How the data were processed

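RNA sequencing measured transcripts in 8 libraries, 2 in each of 4 groups assigned from the sample titles. In the deposited table each cell is a signal: the authors divided a gene's read count by the library's size factor. The submitters' processing notes name the build mm10, HTSeq 0.6.1p1, FastQC 0.11.5 and DESeq2 3.4, and the aligner is not given in the sources used here. Reads were recovered as whole multiples of 1 step per library (100% of values within 0.01 reads), with size factors of 0.875 to 1.16. Genes with a mean of at least 10 (12498) were tested on log2(value + 1), which understates the fold of low genes, with limma 3.58.1 (R 4.3.3), a variance trend and 4 group means. Benjamini-Hochberg adjustment ran over all genes tested, with a threshold of 0.05. DESeq2 1.42.0 and edgeR 4.0.16 on the recovered reads, other scalings, pseudocounts and filters, the replicate block and the omission of each library were alternatives. The procedure was also run on simulated data, in which genes changed in the KO-labelled TGFβ group alone. Far fewer genes changed there than were called here for treatment or genotype. That run therefore does not measure the error of the procedure on these data. Exon lengths and positions are from GENCODE M21, in which 94.7% of symbols were found. The 26 symbols turned into dates were not named. The 9 members and the lists were chosen with earlier results of these data known. All 9 were named whatever their values, with up to 4 genes per list with the smallest p and the 2 most similar genes per member with a mean of at least 50.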

Additional observations from a re-analysis of the deposited data

Results flagged for a closer look

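For 4 of the 9 genes the TGFβ response differed between KO-labelled and WT cells by the test of the difference itself, in log2 units: 1.10 for Klf4, 0.82 for Klf5, 0.85 for Klf9 and 0.68 for Klf10. In normalised reads, the mean changed by -438 in WT and 234 in KO-labelled cells for Klf4, by -975 and -644 for Klf5, by -78.7 and 518 for Klf9, and by 2274 and 1508 for Klf10.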

How the results depend on the processing

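Over the 45 member results (9 genes in 5 comparisons), 765 of 796 recomputed values kept their direction and side of the threshold. Many of these settings cannot move a log2 value, such as the omission of a library outside the comparison or of the variance trend. The total is therefore not a measure of how stable the estimates are. Without the variance trend, 0 of the 9 genes had a called difference of responses (limma; 5 at an unadjusted p under 0.05), against 4 in the model reported and 5 by DESeq2. None of the values that changed sign was called in either setting. They were the Klf2 response in KO-labelled cells, from -0.79 to 0.46 over the omission of each library, and the Klf2 difference, from -0.47 to 0.78; the Klf6 difference, from -0.045 to 0.099; and KO against WT under SB505124, from -0.11 to 0.027 for Klf5 and from -0.089 to 0.037 for Klf6. For Klf6 under TGFβ it ran from -0.071 to 0.074 over the omissions, and was -0.027 with edgeR, -0.0012 with DESeq2 and -0.046 with upper quartile scaling. Klf9 under SB505124 passed with upper quartile scaling (adjusted p = 0.0378). A filter at a mean of 50 removed Klf2. Over all genes, the response in KO-labelled cells had 3864 calls, and 2332 without KO SB505124 replicate 1 and 2320 without KO TGFβ replicate 2. The difference had 352 calls, and 134 without a filter, 47 without the trend, 141 and 168 without WT SB505124 replicate 1 or 2, 1027 without WT TGFβ replicate 1 and 150 without KO TGFβ replicate 1. Replicate numbers are not said to pair samples, and deviations of same-numbered libraries correlated at -0.20 to 0.20. With the replicate block, 6, 7, 4, 5 and 8 members were called, in the order WT response, KO-labelled response, difference, and genotype under SB505124 and TGFβ, and Klf11 in KO-labelled cells no longer passed (adjusted p = 0.0509). Over all genes the block gave 5359, 3658, 252, 7103 and 7835 calls. Where a library was left out, the remaining one of its group was assumed to vary like the other groups. Depth limits Klf2 most, since its KO-labelled values rest on 3 to 11 reads a library.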
